A study of Homo sapiens with 32 samples.

Results

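Between renal proximal tubule epithelial cells (RPTEC) in which SETD2 was re-expressed after knockout and unmodified WT cells, 4514 m6A peak regions differed among the 53283 regions formed by merging every overlapping peak of the 4 libraries concerned. A region was counted when both libraries of 1 line called it and neither library of the other did, an overlap of 1 bp being enough to merge. By this rule 3037 regions were found in both rescue libraries and neither WT library (rescue-only regions, 5.7% of the 53283), and 1477 in both WT libraries and neither rescue library (WT-only regions, 2.77%). These calls define the regions and are given as a description. A further 9407 regions were called in all 4 libraries, 6239 in 1 WT and 1 rescue library (mixed regions), and the 16 libraries of the whole series merged into 99514 regions.

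RPTEC is a non-tumour kidney line immortalized with hTERT, and the study set it beside 786-O, a clear cell renal carcinoma line. In each, MeRIP-seq (antibody pull-down of fragmented RNA carrying m6A, sequenced beside unenriched Input RNA) was run on WT cells, on the knockout clones SETD2KO-1 and SETD2KO-2, and on SETD2KO-1R, which is SETD2KO-1 carrying a FLAG-tagged full-length SETD2 transgene. The RPTEC rescue is 1 clone, derived from SETD2KO-1, so any difference from WT holds knockout, transgene and 2 rounds of cloning together, and these cannot be told apart. Each line had 2 libraries, and no label ties them to separate cultures, so their spread may be technical.

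m6A is the commonest internal mark of messenger RNA. It is written mainly by the METTL3-METTL14 complex, removed by FTO and ALKBH5 and read by proteins such as the YTH family, and it gathers in long exons, around stop codons and near the ends of transcripts. SETD2 trimethylates histone H3 at lysine 36 in the bodies of transcribed genes, a mark that METTL14 can bind, and it is often inactivated in clear cell renal carcinoma. A called peak needs both the RNA and its methylation, so a region present in 1 line and absent from another can reflect either; read counts were not used here, no peak has a known depth, and the peak lists alone cannot tell these apart.

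Rescue-only and WT-only regions lay at gene starts in different shares, and the sequence there is shown for the highest-ranked regions that overlapped a gene start. The window runs from 100 bases before the RefSeq gene start to 30 bases after it (GRCh38.p14, gene strand), with the 30 transcribed bases in capitals. For the rescue-only regions these are YBX1, an RNA-binding protein (chr1:42682318-42682447, plus strand), SEC63, an endoplasmic reticulum translocation protein (chr6:107958179-107958308, minus strand), and CAV2, a caveolin (chr7:116499638-116499767, plus strand).
YBX1: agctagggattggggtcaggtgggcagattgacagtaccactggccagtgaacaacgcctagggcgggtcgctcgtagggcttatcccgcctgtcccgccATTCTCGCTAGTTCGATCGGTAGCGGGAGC
SEC63: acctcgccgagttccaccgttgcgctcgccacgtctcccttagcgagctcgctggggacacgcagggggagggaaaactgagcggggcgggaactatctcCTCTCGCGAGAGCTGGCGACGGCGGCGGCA
CAV2: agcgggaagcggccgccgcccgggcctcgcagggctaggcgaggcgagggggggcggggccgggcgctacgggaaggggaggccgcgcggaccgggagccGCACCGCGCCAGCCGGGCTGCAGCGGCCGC
For the WT-only regions these are NUFIP2 (chr17:29294119-29294248, minus strand), SHISA2 (chr13:26051987-26052116, minus strand) and GLRX5, a mitochondrial glutaredoxin of iron-sulfur cluster assembly (chr14:95534950-95535079, plus strand).
NUFIP2: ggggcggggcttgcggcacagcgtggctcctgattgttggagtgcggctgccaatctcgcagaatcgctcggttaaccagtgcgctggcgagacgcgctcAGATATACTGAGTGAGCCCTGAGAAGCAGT
SHISA2: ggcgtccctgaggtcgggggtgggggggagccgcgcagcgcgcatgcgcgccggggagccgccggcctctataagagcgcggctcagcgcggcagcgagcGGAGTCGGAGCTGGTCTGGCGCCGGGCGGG
GLRX5: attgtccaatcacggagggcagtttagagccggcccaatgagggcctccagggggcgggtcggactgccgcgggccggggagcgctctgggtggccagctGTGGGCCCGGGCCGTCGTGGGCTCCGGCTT

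The lists themselves differed in ways that touch every count below. WT replicates 1 and 2 held 27238 and 23126 peaks and SETD2KO-1R replicates 1 and 2 held 29154 and 31207, a mean of 25182 ± 2908 (SD, n = 2) against 30180.5 ± 1452 (SD, n = 2). The difference of 0.27 on the log2 scale gave p = 0.333 in a two-sided exact permutation test over the 4 libraries, the smallest p that 2 against 2 allows. The shortest peak was 270 and 265 bp in the WT libraries but 233 and 252 bp in the rescue libraries. Among peaks of at least 270 bp the libraries of both lines held similar numbers (log2 difference 0.01, exact permutation p = 1), and the regions then numbered 1889 rescue-only and 1794 WT-only. The excess of rescue-only regions (2.06 to 1) thus became 1.05 to 1, and with the 23126 highest-scoring peaks of every library it was 1.19 to 1 (2006 and 1680). With 1 library left out, its line needed 1 call and not 2, so these ratios do not set the lines on equal terms. The ratio was then 0.971 without WT replicate 1, 0.609 without WT replicate 2, 4.35 without SETD2KO-1R replicate 1 and 3.42 without SETD2KO-1R replicate 2. It lay below 1 without either WT library. A calling peak shorter than 270 bp stood behind 39.4% of rescue-only and 7.92% of WT-only regions. The share of bases that 2 lists had in common was 0.338 between the WT replicates and 0.380 between the rescue replicates, while WT replicate 1 shared 0.377 and 0.380 with the rescue libraries and WT replicate 2 shared 0.292 and 0.308. WT replicate 1 was therefore no closer to its own replicate than to the rescue. The same held for SETD2KO-1R replicate 2, which shared 0.380 with WT replicate 1 and 0.380 with its own replicate. SETD2KO-1R replicate 1 shared 0.397 with SETD2KO-1 replicate 2, more than with its own replicate. The RPTEC libraries carried peaks in the renal epithelial genes PAX8, PAX2, KRT8, KRT18 and KRT19 in all 8 libraries, and none in the tubule transport and receptor genes LRP2, CUBN, AQP1, SLC34A1 and SLC22A6. Of 20 renal epithelial markers 9 had a peak in all 8 libraries and 9 in none, which does not show that their RNA was absent. None of 4 blood markers had a peak in any WT or rescue library, 1 of 4 endothelial markers did (CDH5, 1 in each of the 4) and so did 1 of 4 fibroblast markers (LUM, 1 and 1 in WT and none in SETD2KO-1R).

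Differing regions gathered in some genes, which are given first by the number of regions they held and thus by the calls themselves. Of the 11308 protein-coding genes with a peak in any of the 4 libraries, 2155 (19.1%) held the midpoint of at least 1 rescue-only region and 1112 (9.83%) that of a WT-only region, with 252 genes in both groups. Most held 1 region, namely 1738 and 965 genes. At least 4 regions lay in 50 genes for the rescue and 13 for WT.

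COL5A1, which encodes a chain of the fibrillar type V collagen, held the most rescue-only regions (12). It had no called peak in either WT library, 15 and 20 in the SETD2KO-1R libraries, 11 and 13 in the SETD2KO-1 libraries and none in the SETD2KO-2 libraries. The gene was thus marked in the rescue and its knockout parent and in neither WT nor the other clone. Its peaks ran from 0.158 to 202 kb from the gene start in SETD2KO-1R replicate 1, across nearly the whole 203 kb gene, and scored 31 to 648.

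TENM3, a teneurin adhesion receptor, held 11 rescue-only regions, with no peak in WT, 20 and 22 in SETD2KO-1R, 16 and 12 in SETD2KO-1 and 10 and 7 in SETD2KO-2. Here all 3 SETD2-edited lines had peaks and the WT libraries did not, while each 786-O library, WT included, had 29 to 42. ABTB3 (8 regions) had 2 and 1 peaks in WT, 17 and 18 in SETD2KO-1R, 13 and 17 in SETD2KO-1 and 15 and 8 in SETD2KO-2. ADAM12, a membrane metalloprotease (7 regions), had 4 and 3 in WT, 15 and 16 in SETD2KO-1R, 11 and 13 in SETD2KO-1 and 9 and 5 in SETD2KO-2. Both genes were low in WT and higher in every edited library.

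CDH4, the cell adhesion molecule R-cadherin (8 regions), was marked in WT too, with 28 and 26 peaks against 45 and 47 in SETD2KO-1R. Its knockout libraries had 20 and 31 (SETD2KO-1) and 25 and 9 (SETD2KO-2), so the rescue stood above all other RPTEC libraries. CDK14, a cyclin-dependent kinase (7 regions), also had its highest numbers in the rescue, 13 and 15, against 1 and 1 in WT, 5 and 5 in SETD2KO-1 and 5 and 6 in SETD2KO-2.

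In the other direction PKHD1, which encodes the cilium-associated protein fibrocystin and is mutated in recessive polycystic kidney disease, held the most WT-only regions (6). It had 13 and 13 peaks in WT, 1 and 1 in SETD2KO-1R, 10 and 14 in SETD2KO-1 and 2 and 3 in SETD2KO-2. The knockout parent therefore resembled WT in this gene while its rescue did not. The single peak left in each rescue library lay 62.5 and 61.9 kb from the gene start, where WT replicate 1 also had its first peak (62.2 kb).

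**Figure D1:**
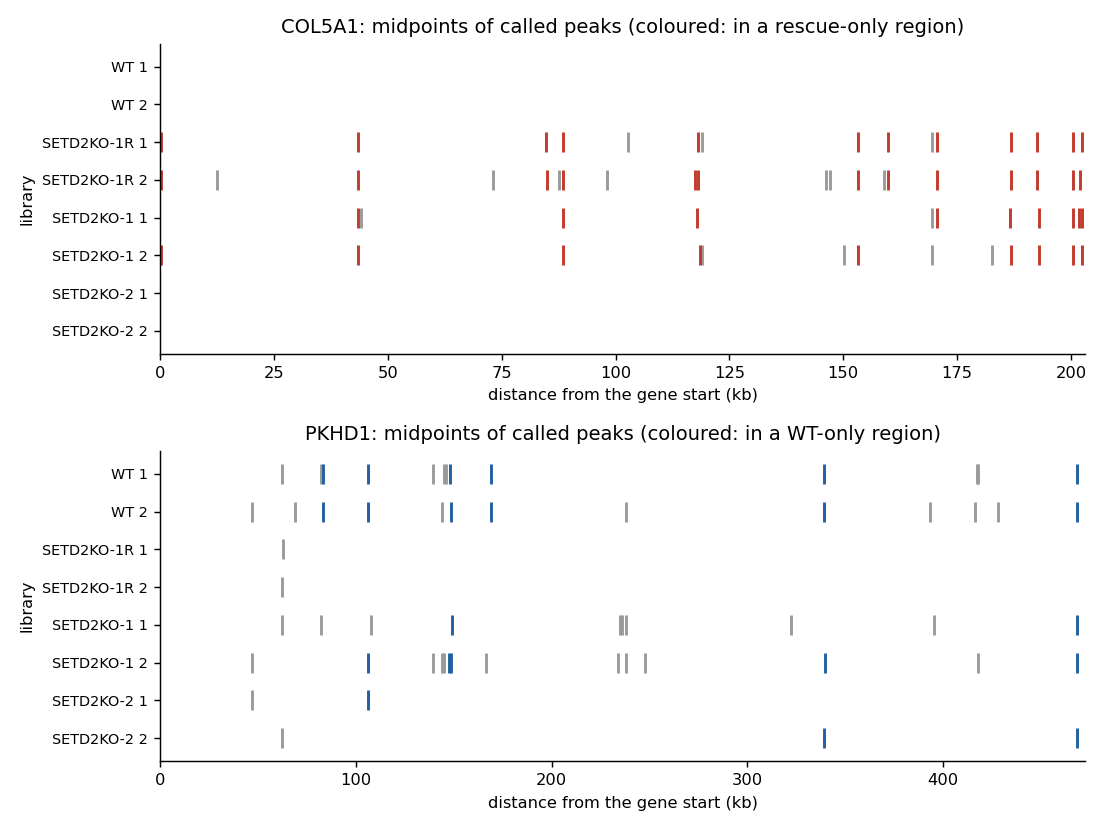
Midpoints of called peaks in COL5A1 (top) and PKHD1 (bottom), by distance from the gene start in kb, 1 row for each of the 8 RPTEC libraries, with peaks in rescue-only (red) or WT-only (blue) regions in colour and other peaks in grey. COL5A1 peaks are spread over the gene in SETD2KO-1R and SETD2KO-1 and missing in WT and SETD2KO-2, and the 13 PKHD1 peaks of each WT library are reduced to 1 in each SETD2KO-1R library.

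NXN, a thioredoxin-like redox protein, held 5 WT-only regions with 34 and 43 peaks in WT against 23 and 30 in SETD2KO-1R, and it also held 2 rescue-only regions. PATJ, a tight junction scaffold (5 regions), had 12 and 20 peaks in WT, 4 and 0 in SETD2KO-1R, 3 and 5 in SETD2KO-1 and 4 and 4 in SETD2KO-2. UBE2D2, a ubiquitin-conjugating enzyme (5 regions), had 14 and 26 in WT, 4 and 6 in SETD2KO-1R, 6 and 2 in SETD2KO-1 and 1 and 3 in SETD2KO-2. In PATJ and UBE2D2 each WT library was above every edited library. HSPG2, the basement membrane proteoglycan perlecan (4 regions), had 17 and 11 peaks in WT and 9 and 12 in SETD2KO-1R, so its totals overlapped. KAZN, a desmosome-associated protein (4 regions), had 14 and 19 against 8 and 12. Another 7 genes also held 4 WT-only regions.

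Some genes were marked in 1 line and carried no peak at all in the other. With gene bodies as the unit, 482 of 11308 protein-coding genes (4.26%) had a peak in both rescue libraries and none in WT, and 224 (1.98%) the reverse. Among peaks of at least 270 bp these were 338 and 307 genes, of which 327 and 201 were in the first lists. At least 3 peaks in each calling library were present in 24 and 6 of the genes, a cut chosen after the values were seen. Such genes held a small share of the regions: 369 of the 2538 rescue-only regions that lay in exactly 1 protein-coding gene (14.5%) were in genes without a WT peak, and 1870 (73.7%) were in genes that both WT libraries called elsewhere. For WT-only regions the numbers were 174 (14.3%) and 933 (76.5%) of 1219.

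The 24 genes with rescue peaks and no WT peak fell into different patterns across the knockout clones. SCARF2, a scavenger receptor family member, had 5 and 5 peaks in SETD2KO-1R and none in any WT or knockout RPTEC library. MKX, a homeobox factor of tendon development, likewise had 5 and 3 in the rescue alone, and SCN8A, a sodium channel, 4 and 3. EPPK1, the cytoskeletal linker epiplakin, had 8 and 9 in the rescue and 1 in SETD2KO-2 replicate 1 alone among the other RPTEC libraries. These genes were marked in the rescue without being marked in its parent clone. NTN1, the guidance protein netrin-1 (5 and 7), and PDPN, the membrane glycoprotein podoplanin (3 and 3), had peaks in both SETD2KO-1 libraries as well (1 and 4, 3 and 2) and none in SETD2KO-2, the COL5A1 pattern. ANK3, a membrane-cytoskeleton adaptor (7 and 5), EDIL3, an integrin ligand (5 and 7), FBN2, a microfibril protein (3 and 3), PCLO (3 and 7), DGKI (3 and 6), TMOD1 (3 and 3) and TSHZ3 (4 and 5) had peaks in every knockout library, as TENM3 did. With peaks of at least 270 bp, 23 of the 24 still had a peak in both rescue libraries and none in WT. The exception was DGKI.

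The genes with at least 3 peaks in each WT library and none in the rescue included TMEM163, ZNF471, FAM83B, STOX2 and ZNF497. TMEM163, a zinc transporter, had 10 and 9 peaks in WT, 2 and 6 in SETD2KO-1 and 1 and 1 in SETD2KO-2. STOX2 had 7 and 3 in WT, yet 7 and 9 in SETD2KO-1 and 6 and 4 in SETD2KO-2, so it was lost in the rescue only among the RPTEC lines. The zinc finger genes ZNF471 (4 and 4) and ZNF497 (3 and 3) had no peak in any edited RPTEC library, whereas ZNF471 had 2 to 5 in each of the 8 786-O libraries. Over the 222 ZNF genes of chromosome 19 with a peak, 6 had WT peaks and none in the rescue (ZNF471, ZNF497, ZNF585A, ZNF585B, ZNF667 and ZNF671) and 1 the reverse (ZNF85), against 1.98% and 4.26% of all genes. Rescue-only regions lay in 8.11% and WT-only regions in 10.4% of the 222, against 19.1% and 9.83% of all genes with a peak and 12.5% and 6.58% of genes with 2 to 3 regions, the list's median being 2. In total these genes summed to 472 and 447 peaks in WT and 447 and 446 in SETD2KO-1R. ZNF585A and ZNF585B are near-identical neighbours whose reads may be split between them.

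**Figure D2:**
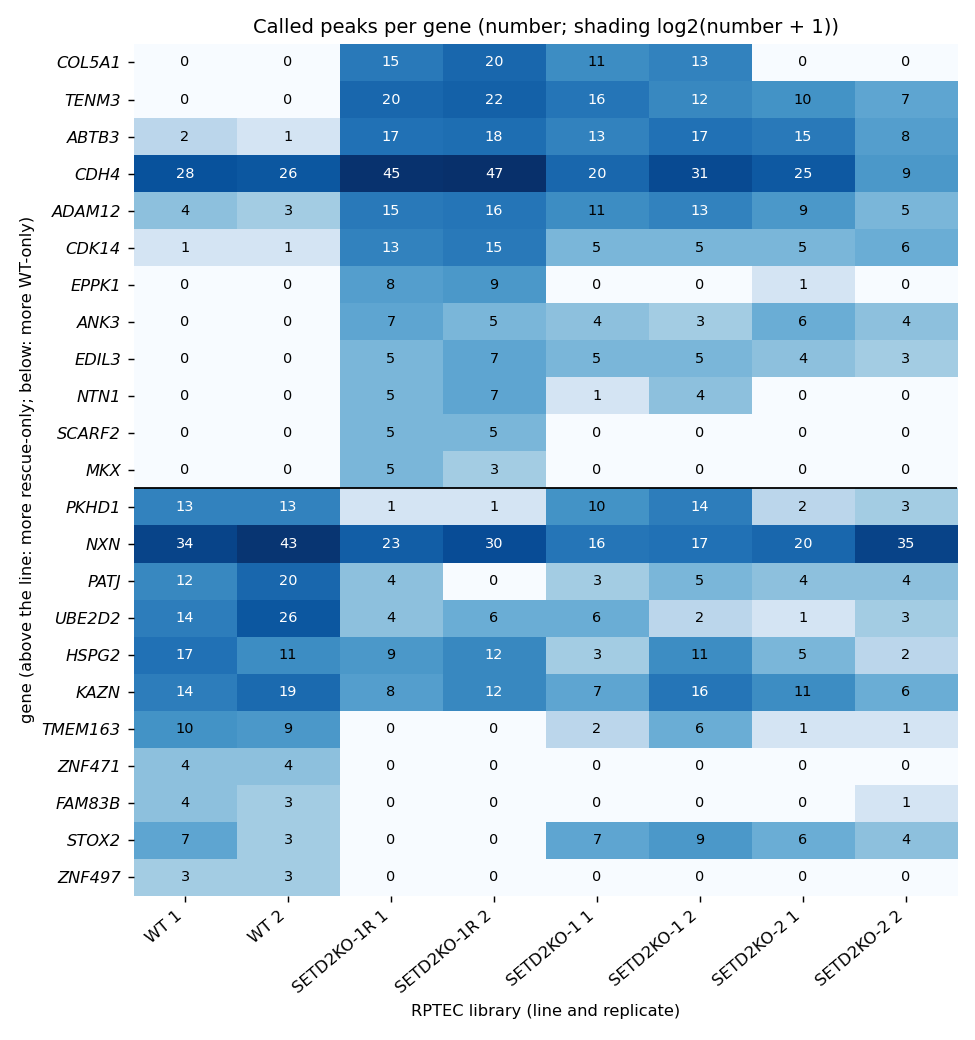
Number of called peaks in each of the 8 RPTEC libraries (columns) for 23 genes (rows), shaded by log2 of the number plus 1. Rows above the line hold more peaks in SETD2KO-1R than in WT, rows below it fewer on average, and the 4 knockout columns show that COL5A1 follows SETD2KO-1 whereas PKHD1 and STOX2 do not.

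The regions with the highest scores lay in other genes than these. The score is a whole number given to each peak and is used here by its percentile within its own list. Among rescue-only regions the top ranks were held by EEF1G, a translation elongation factor subunit (scores 1287 and 1384 in SETD2KO-1R replicates 1 and 2), PTMA, prothymosin alpha (1397 and 1235), and MYH9, non-muscle myosin heavy chain (1036 and 1016). PES1, PGD, EDF1, TCF25, MSN, NF2 and CHD3 followed, with scores from 741 to 981. All 10 lay above the 99th percentile in both rescue libraries. With peaks of at least 270 bp, the regions in MYH9, PGD, TCF25, MSN and NF2 were no longer called in both rescue libraries. Of the 10 regions, 9, all but that of NF2, were also called in at least 1 SETD2KO-1 library. Neither SETD2KO-1 library called 38.1% of all rescue-only regions, and the regions of all 4 libraries, whose scores ranked higher, were called at 83.4% and 90.2% in SETD2KO-1 replicates 1 and 2. EEF1G, PTMA and EDF1 have processed pseudogene copies, so their reads may be shared with other loci. NF2 is the tumour suppressor merlin and CHD3 a chromatin remodeller.

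Among WT-only regions the top ranks were held by APLP2, an amyloid precursor-like protein (scores 1257 and 1195 in WT replicates 1 and 2), NUFIP2 (839 and 759), NUCKS1 (839 and 728), GIGYF2, a translation regulator (776 and 701), and RPL22, a ribosomal protein (1197 and 538). SAA1, ACTN4, SHISA2, MBD3 and GLRX5 completed the list with scores from 485 to 944, and the MBD3 region was the only one of these 10 no longer called in both WT libraries with peaks of at least 270 bp. The ACTN4 region, in the gene of an actin crosslinker, was called in none of the 4 knockout libraries. The APLP2 region was called in 1 library of each clone. The NUCKS1 and MBD3 regions were called in all 8 786-O libraries, so absence from the RPTEC rescue did not extend to the other cell line.

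Most regions were weaker than these. The median score percentile of rescue-only regions was 40.9 and 46.9 in the rescue libraries and that of WT-only regions 35.9 and 40.4 in the WT libraries, against 67.3 to 70.6 for regions called in all 4. Mixed regions were low too, with medians of 37.4 to 39.2. Both calling peaks lay in the upper 50% of their lists for 933 rescue-only regions (30.7%) and 339 WT-only regions (23%). The median length was 423 bp for rescue-only, 455 bp for WT-only, 431 bp for mixed and 743 bp for regions of all 4 libraries. A peak of the other line lay within 100 bp of 30 rescue-only and 17 WT-only regions and within 500 bp of 445 (14.7%) and 222 (15%).

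The knockout libraries took no part in choosing the regions and show which differences from WT the rescue shared with its parent clone. Both SETD2KO-1 libraries called 639 of the 3037 rescue-only regions (21.0%, 95% Wilson interval 19.6 to 22.5), 1 called 1242 (40.9%) and neither called 1156 (38.1%). Mixed regions, which differed between replicates and not between lines, were called in both SETD2KO-1 libraries at 17.8% (16.9 to 18.8). All regions, which include those of all 4 libraries, were called in both at 25.4% and in neither at 46.9%. The rescue-only share in both thus lay above that of mixed regions and below that over all regions. In SETD2KO-2, which is not an ancestor of the rescue, both libraries called 351 rescue-only regions (11.6%) and 10.4% of mixed regions. Over all regions that share was 19.2%. All 4 knockout libraries called 178 rescue-only regions and none called 791 (26.0%). Absent from all 4 were 36.6% of all regions and 29.7% of mixed regions. Intervals here and below cover the counting of regions only, and regions of 1 gene or library are not independent.

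Of the 1477 WT-only regions, 758 (51.3%, 48.8 to 53.9) were called in neither SETD2KO-1 library, 479 (32.4%) in 1 and 240 (16.2%) in both. Mixed regions were called in neither at 44.9% (43.7 to 46.1) and all regions at 46.9%. SETD2KO-2 gave 777 (52.6%) in neither and 201 (13.6%) in both, against 52.9% and 19.2% of all regions. Absent from all 4 knockout libraries were 499 WT-only regions (33.8%), against 36.6% of all regions. The difference between WT-only and mixed regions in SETD2KO-2 was smaller, 52.6% against 51.8% in neither.

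By library, rescue-only regions were called at 32.1% and 50.9% in SETD2KO-1 replicates 1 and 2 and at 40.1% and 19.1% in SETD2KO-2 replicates 1 and 2. This order follows the number of peaks in those libraries (24605, 30614, 26270 and 19249). WT-only regions were called at 33.6%, 31.3%, 30% and 31% in the same libraries. All regions were called at 35.0%, 43.5%, 38.8% and 27.6% and mixed regions at 31.1%, 41.8%, 36.2% and 22.4%, in the same order as the rescue-only regions. SETD2KO-1 replicate 2 has the same shortest peak as SETD2KO-1R replicate 1 (233 bp), and the part of peak length in this overlap was not tested at the level of single regions. With peaks of at least 270 bp, both SETD2KO-1 libraries called 20.5% of rescue-only regions and neither called 52.0% of WT-only regions.

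**Figure D3:**
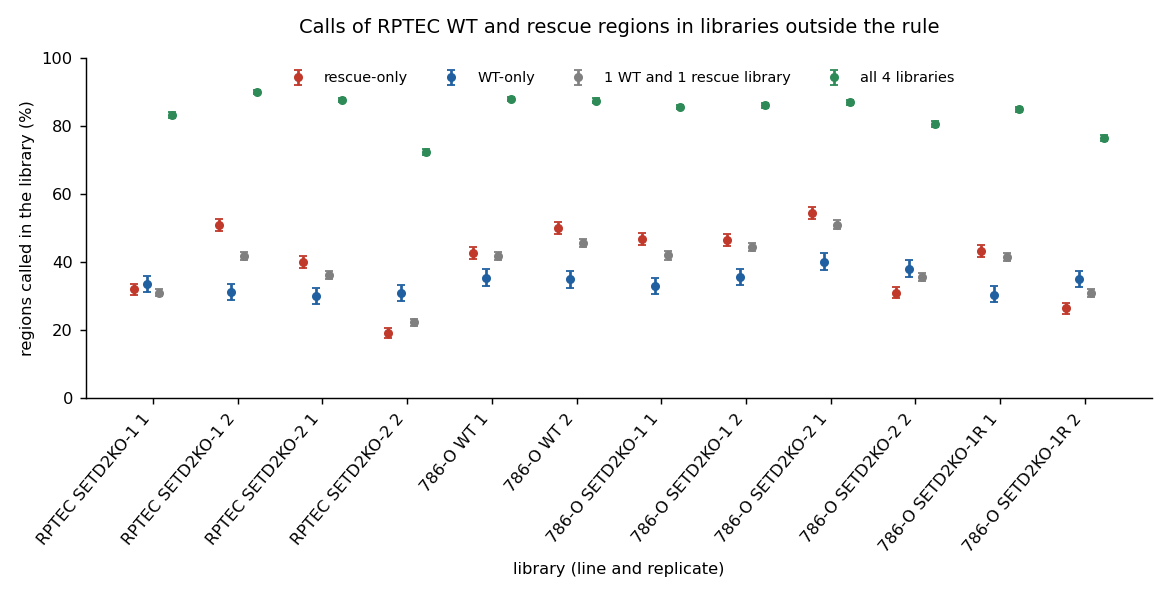
Share of rescue-only (red), WT-only (blue), mixed (grey) and all-4-library (green) regions that were called in each of the 12 libraries outside the rule, in percent, with 95% Wilson intervals. Rescue-only shares range widely, from 19.1% to 50.9% in the RPTEC knockout libraries, WT-only shares stay between 30% and 33.6% there, and regions of all 4 libraries are called at 72.6% to 90.2%.

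The rule applied to WT and SETD2KO-1R of 786-O gave 1634 rescue-only (2.71%) and 3260 WT-only regions (5.41%) among 60211. The order of the groups in 786-O turned with peaks of at least 288 bp, the longest of its libraries' shortest peaks (2397 rescue-only and 1820 WT-only), and with 25710 peaks per library it was 1771 and 2163. As in RPTEC, the balance of the directions thus moved with peak length and number. Of the RPTEC rescue-only regions, 71 (2.34%) overlapped a 786-O rescue-only region and 201 (6.62%) a 786-O WT-only region, which were 4.28% and 6.13% of the 786-O lists. Of the RPTEC WT-only regions, 65 (4.40%) overlapped a 786-O WT-only region and 38 (2.57%) a 786-O rescue-only region, or 2.02% and 2.33% of the 786-O lists. Over all RPTEC regions 1.57% overlapped a 786-O rescue-only and 4.07% a 786-O WT-only region, and over mixed regions 2.08% and 5.63% did. At least 1 of the 8 786-O libraries called all but 571 rescue-only (18.8%) and 384 WT-only regions (26.0%), against 25.7% of all regions and 16.7% of mixed regions.

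Gene position separated the groups at the start of genes. The midpoint lay in a protein-coding gene for 86.7% of rescue-only (2634) and 85.4% of WT-only regions (1261), below the 91.1% of regions called in all 4 libraries, and in no annotated gene for 6.91% and 7.58%. For regions in exactly 1 protein-coding gene of known strand, 150 of 2106 rescue-only regions (7.12%, 6.10 to 8.30) lay within 500 bp of the gene start, against 27 of 981 WT-only regions (2.75%, 1.90 to 3.97), 5.84% of mixed regions, 6.43% of regions of all 4 libraries and 5.12% (4.90 to 5.35) of all regions. The rescue-only share thus lay above that over all regions and the WT-only share below it, and the contrast was as large among peaks of at least 270 bp (7.29% and 2.46%). The start-proximal share of whole lists was 6.32% in WT replicate 1, 4.14% in WT replicate 2, and 6.09% and 6.15% in the rescue libraries. WT replicate 2, whose calls every WT-only region needs, was therefore the lowest of the 4, and its part in the contrast was not tested.

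The last 10% of the gene held 18.1% (16.5 to 19.8) of rescue-only and 18.3% (16.1 to 20.9) of WT-only regions. Over all regions the share was 17.4% (17.0 to 17.7), so both groups lay near it. Mixed regions placed 15.5% there and regions of all 4 libraries 28.2%. Within 500 bp of the gene end lay 46 rescue-only (2.18%, 1.64 to 2.90) and 9 WT-only regions (0.917%, 0.483 to 1.73), against 1.48% of all regions, the rescue-only share being the higher as at gene starts. In whole lists this share was 2.08% in SETD2KO-1R replicate 1, 1.61% in SETD2KO-1R replicate 2, and 1.68% and 1.66% in the WT libraries. The part of peak length at gene ends was not tested. Exons, introns and stop codons were not analysed here, because only gene bodies were annotated.

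**Figure D4:**
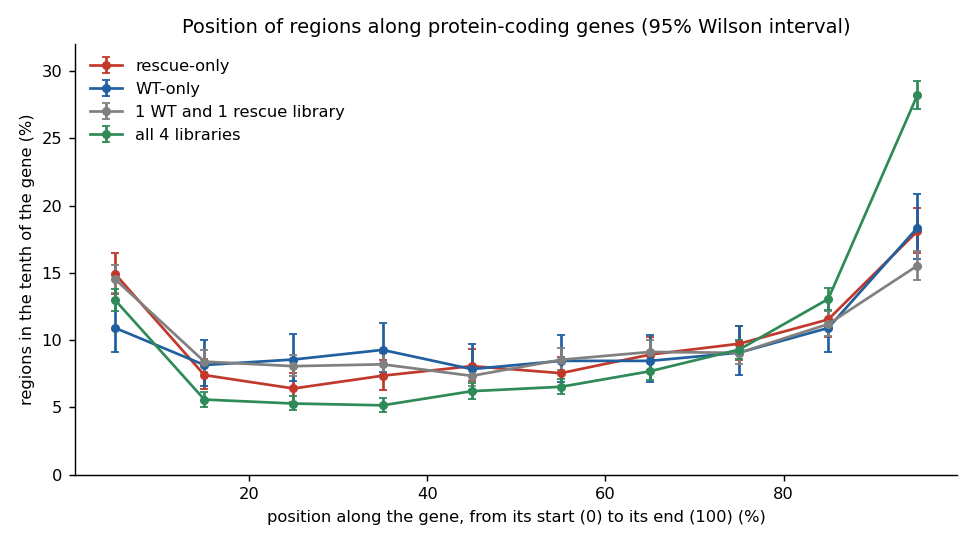
Share of regions in each 10% stretch of the protein-coding gene that holds them, from start to end, in percent with 95% Wilson intervals. The intervals of rescue-only and WT-only regions overlap apart from the first 10% (14.9% and 10.9%), and regions of all 4 libraries reach 28.2% in the last 10%.

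Of the regions whose promoter sequence is printed above, those in NUFIP2 and GLRX5 had their midpoints 23 bases from the gene start. The YBX1 region scored at percentiles 98.7 and 99.7 and was called in 1 library of each knockout clone, and the CAV2 region, at percentiles 94.9 and 97.6, was called in no SETD2KO-1 library. A first transcribed A matters here because the cap-adjacent modified base m6Am is read by m6A antibodies as well. The first 30 transcribed bases of 209 protein-coding promoters overlapped a rescue-only region, and 85 of these started with A (40.7%, 34.2 to 47.4). The share was 46.5% (20 of 43) for WT-only regions, 48.1% for mixed regions, 44.2% for regions of all 4 libraries, 45.0% (43.4 to 46.7) for promoters at any of the 53283 regions and 50.1% for all 22199 protein-coding promoters. The rescue-only interval included the share at any region. The m6A core letters GGAC occurred on the gene strand of the first 50 transcribed bases in 23% of the promoters at rescue-only regions, 9.30% (4 of 43) at WT-only regions and 19.8% of all promoters. On the other strand the figures were 18.2%, 20.9% and 18.8%. These are letter matches in reference sequence and not sites of methylation.

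Differing regions lay on each of chromosomes 1 to 22 and X, in shares that mostly lay close to those over all regions. Chromosome Y is not described here, and the ranges that follow leave it out. Rescue-only regions made up from 3.55% (chromosome 13) to 7.26% (chromosome 20) of a chromosome's regions, and WT-only regions from 1.98% (chromosome 14) to 3.55% (chromosome 13). Chromosome 13 held 37 of each. Chromosomes 20 (96 regions), 4 (142 regions, 7.03%) and 9 (159 regions, 6.78%) had the highest rescue-only shares, and without CDH4, TENM3 and COL5A1 these were 7.03%, 6.59% and 6.33%. The rescue-only interval of chromosome 13 (2.59 to 4.86) lay below 5.7% and those of these 3 chromosomes above it, and without the single gene those of chromosomes 4 (5.58 to 7.77) and 9 (5.41 to 7.40) included it while that of chromosome 20 (5.74 to 8.58) did not. On contigs outside the main chromosomes 20 of 85 regions (23.5%, 15.8 to 33.6) were rescue-only and 1 was WT-only, in sequence that is often repeated elsewhere in the genome.

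**Figure D5:**
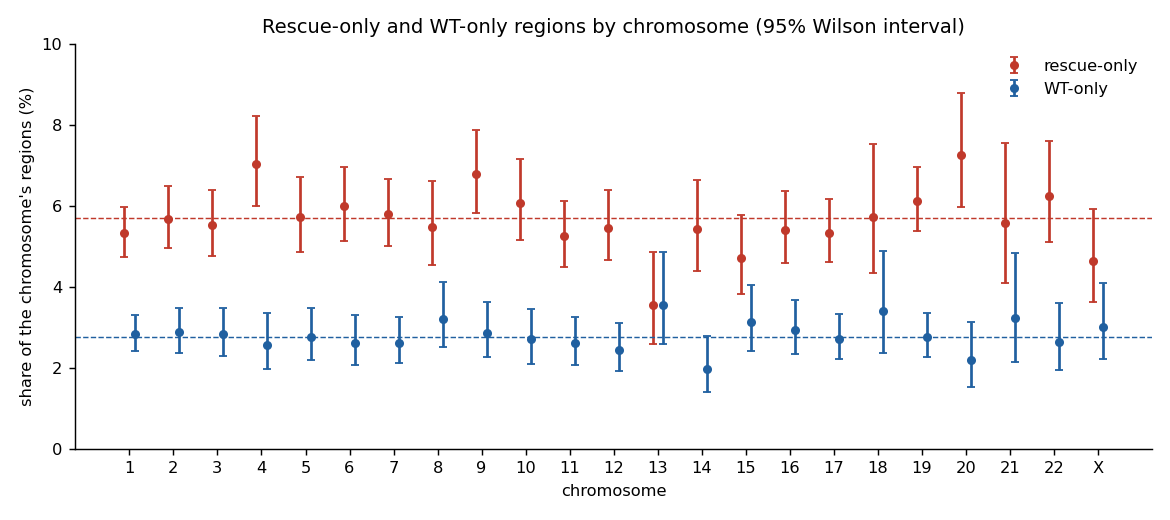
Share of each chromosome's merged regions that were rescue-only (red) or WT-only (blue), in percent with 95% Wilson intervals, and dashed lines at the shares over all regions (5.7% and 2.77%). Most intervals include the dashed line, chromosome 13 has equal shares (3.55%) and chromosome 20 has the highest rescue-only share (7.26%).

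Genes of the extracellular matrix and its receptors held rescue-only regions in 11 of the 26 listed genes that had a peak (42.3%, against 19.1% of all genes) and WT-only regions in 4 (15.4%, against 9.83%). These genes also held more regions each, a median of 8 against 3 over all genes with a peak, and genes with 7 to 10 regions held a rescue-only region in 33.8% and a WT-only region in 17.1% of cases. Besides COL5A1, the basement membrane collagens COL4A1 (3 regions) and COL4A2 (4 regions) were among them. COL4A2 had 14 and 12 peaks in WT and 23 and 19 in SETD2KO-1R, and COL4A1 had 7 and 5 against 7 and 13. COL7A1, the anchoring fibril collagen (2 regions), had 10 and 4 against 16 and 13. LAMA5, a laminin chain, had 2 and 1 in WT and 5 and 5 in SETD2KO-1R, and none in any knockout library. The genes with WT-only regions were COL6A2, LAMA3, ITGA3 and ITGB6, and ITGB6, an integrin chain of epithelia, had 1 and 2 peaks in WT and none in SETD2KO-1R.

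The writers, erasers and readers of m6A held rescue-only regions in 4 (20%, against 19.1% of all genes with a peak) and WT-only regions in 3 (15%, against 9.83%) of 20 genes with a peak. Among genes with 4 to 6 regions, the list's median being 4, the shares were 24.7% and 10.3%. The rescue-only regions lay in YTHDF1, IGF2BP2, IGF2BP3 and HNRNPC and the WT-only regions in VIRMA, FTO and IGF2BP2, 1 in each. METTL3 and METTL14 held neither, and METTL3 had 1 peak in 1 rescue library alone among the RPTEC libraries. FTO, an eraser, had 3 and 3 peaks in WT and 2 and 1 in SETD2KO-1R. The list as a whole summed to 59 and 64 peaks in WT and 61 and 67 in SETD2KO-1R.

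Of the 10 enzymes that add or remove methyl groups at H3K36, 5 held rescue-only and 3 WT-only regions, in genes with a median of 14.5 regions. Among all genes with 11 to 20 regions, 51.4% held a rescue-only and 30.5% a WT-only region, so the 50% and 30% of this list were near the shares for genes of that size. SETD2 itself held 2 rescue-only regions and no WT-only region, with 7 and 10 peaks in WT, 11 and 10 in SETD2KO-1R, 6 and 4 in SETD2KO-1 and 4 and 5 in SETD2KO-2. The rescue transgene carries the SETD2 coding sequence, so peaks from it and from the resident gene cannot be told apart. KDM2B, an H3K36 demethylase, held 2 rescue-only regions (6 and 3 peaks in WT, 9 and 9 in SETD2KO-1R) and its relative KDM2A 2 WT-only regions (9 and 11 in WT, 9 and 9 in SETD2KO-1R).

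Genes of epithelial-mesenchymal transition held rescue-only regions in 4 (VIM, ZEB1 and THBS1 among them) and WT-only regions in 5 (SNAI2, TGFB2, TGFBI, TGFBR2, TPM1) of 19 genes with a peak. These were 21.1% and 26.3% of the list, against 19.1% and 9.83% of all genes with a peak. Among genes with 4 to 6 regions, the list's median being 5, the shares were 24.7% and 10.3%. SNAI2, a transcriptional repressor of epithelial genes, had 2 and 1 peaks in WT, none in SETD2KO-1R and 1 or 2 in every knockout library. THBS1, a matrix glycoprotein that activates TGF-beta, held 2 rescue-only regions, with 2 and 1 peaks in WT and 4 and 3 in SETD2KO-1R. Among complement genes, the membrane regulators CD55 (2 and 2) and CD46 (1 and 1) had peaks in the rescue and none in WT, while CD59, another such regulator, had 2 and 2 in WT and 1 and 1 in the rescue, and C3, the central complement component, had 3 and 1 in WT and none in the rescue. Of the 6 complement genes with a peak, 2 held a rescue-only region (33.3%, against 19.1% of all genes) and 1 a WT-only region (16.7%, against 9.83%), and the numbers of peaks were small. Among genes with 2 to 3 regions, the list's median being 2, the shares were 12.5% and 6.58%. In the p53 and cell cycle list, 4 of 12 genes with a peak held rescue-only regions (33.3%, against 19.1% of all genes) and 2 held WT-only regions (16.7%, against 9.83%). The list's median was 4 regions, and genes with 4 to 6 regions held them in 24.7% and 10.3% of cases. RB1 and CCND1 held 1 rescue-only region each, and CDK4 had 1 peak in each rescue library and none in WT. CDKN2A, which encodes the p16 and ARF inhibitors, had 5 and 2 peaks in WT, 1 and 1 in SETD2KO-1R, 0 and 2 in SETD2KO-1 and none in SETD2KO-2, with 2 WT-only regions and 1 rescue-only region. CDK6 held 3 WT-only regions and 1 rescue-only region. TERT, whose coding sequence immortalized these cells, had 1 peak in each WT and rescue library and held no differing region. Neither MAL nor POU2F2 held a differing region, with 6 and 5 peaks in WT and 5 and 3 in SETD2KO-1R for MAL and 1 and 1 against 1 and 0 for POU2F2.

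In 9 genes at least 2 regions of each direction lay somewhere in the gene body. NXN and BICD1, a dynein adaptor, were joined by BICC1, CDH13, SIPA1L3 and EGFR among the first 6. These 6 genes held from 17 (EGFR) to 71 (CDH13) merged regions each, against a median of 3 over all genes with a peak. CDH13, the lipid-anchored T-cadherin (3 rescue-only and 2 WT-only regions), had 40 and 27 peaks in WT and 45 and 32 in SETD2KO-1R. EGFR, the epidermal growth factor receptor (2 of each), had 9 and 10 peaks in both lines. In CDH13 and EGFR the totals overlapped between the lines while positions differed, whereas SIPA1L3, with 38 and 45 peaks in WT and 28 and 34 in SETD2KO-1R, had separate totals.

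Of 10 renal epithelial markers with a peak, PAX8 (2), PAX2 (2), CDH6 (4) and KRT8 (1) held rescue-only regions (40%, against 19.1% of all genes) and GGT1 a WT-only region (10%, against 9.83%). These markers had a median of 10.5 regions each, and 33.8% of genes with 7 to 10 regions and 51.4% of those with 11 to 20 held a rescue-only region. CDH6, a cadherin of the proximal tubule, had 5 and 4 peaks in WT and 12 and 11 in SETD2KO-1R, 11 and 11 in SETD2KO-1 and 7 and 6 in SETD2KO-2. PAX8, a kidney lineage factor, had 12 and 11 in WT and 17 and 17 in SETD2KO-1R.

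Outside protein-coding genes lay 193 rescue-only and 104 WT-only regions in other annotated genes, mostly long noncoding RNAs. LIMS3-LOC440895, a readthrough locus in a duplicated stretch of chromosome 2, held 6 rescue-only regions, and its reads may come from related copies. TPT1-AS1 was the only such gene with at least 3 WT-only regions (3). The lists give no strand, so regions where genes on opposite strands overlap cannot be assigned to 1 of them.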

How the data were processed

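RNA of RPTEC and 786-O lines was profiled by MeRIP-seq, and 1 peak list for each of 16 IP libraries was used. The authors aligned reads with STAR to hg38, counted with HTSeq, scaled IP over Input by an E. coli RNA spike-in and depth, and called peaks for each library with MACS2. The deposited score of each peak is a whole number of unstated scale, used here only to rank peaks within a list, and the deposited summit column was not used in any result. The remaining columns were 0 throughout. No read counts were analysed here, so no peak has a known depth, and the 16 Input samples were not analysed here.

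Overlapping peaks of the 2 WT and 2 SETD2KO-1R libraries were merged (pandas 2.3.3 and NumPy 2.4.6 under Python 3.11.15; statistics in SciPy 1.17.1). Region midpoints were placed in RefSeq gene bodies of GRCh38.p14. Peak numbers were compared by an exact permutation test. Intervals are 95% Wilson intervals. Merging was tested on simulated data. Genes were named by rule: the 10 highest-ranked regions and the 6 genes with most regions in each direction, genes with regions of both directions, and members of the gene lists. The regions, gene lists and rules were chosen with earlier results of these data known. Genes marked in 1 line alone and the ZNF list were added after their values were seen. Alternatives were score, peak number, length, merging and distance settings, and each library left out. Some items are not reported here.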

Additional observations from a re-analysis of the deposited data

Results flagged for a closer look

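In 13 of the 69 named genes (18.8%) the rescue differed from WT in opposite directions in RPTEC and 786-O, every rescue library lying on 1 side of both WT libraries in RPTEC and on the other side in 786-O. Another 7 named genes (10.1%) moved the same way in both cell lines, and over the 11308 protein-coding genes with a peak in RPTEC WT or rescue 3.44% moved opposite ways and 1.6% the same way. Many of the named genes were chosen for a difference in RPTEC, so a higher share among them is no result. The 786-O lists differed the other way from those of RPTEC, with 31516 and 36401 peaks in WT (shortest 264 and 236 bp) and 32016 and 25710 in the rescue (shortest 288 bp in both). With peaks of at least 270 bp in RPTEC and 288 bp in 786-O, a setting chosen after seeing the data, 1.95% of 10987 genes moved opposite ways and 1.58% the same way. Of the 13 named genes, 7 then still moved opposite ways, namely COL5A1, ADAM12, CDK14, SAA1, PATJ, EPPK1 and SCARF2. The difference between the cell lines was not tested. In ADAM12 the mean number of peaks was 12 higher in the RPTEC rescue and 13 lower in the 786-O rescue (15 and 17 in WT, 3 and 3 in SETD2KO-1R). COL5A1 had 17.5 more in RPTEC and 2.5 fewer in 786-O, where WT had 2 and 3 and the rescue none. EPPK1 had 8.5 more in RPTEC and 3.5 fewer in 786-O (4 and 3 against 0 and 0). CDK14 had 13 more and 5.5 fewer, ABTB3 16 more and 2.5 fewer, and SCARF2 5 more and 3.5 fewer. CHD3 had 4.5 more and 6.5 fewer, BICC1 4.5 more and 8.5 fewer, PDCD7 3 more and 1.5 fewer, and PTMA 2 more and 2 fewer. With peaks of at least 270 bp the RPTEC numbers no longer separated in BICC1 (19 and 21 in both lines) and CHD3 (7 and 5 in WT, 7 and 9 in SETD2KO-1R). APLP2, whose WT-only region is described above, had 1 more peak in the RPTEC rescue and 3 fewer in 786-O, and with peaks of at least 270 bp its RPTEC numbers were 4 and 4 in WT against 2 and 3. PATJ ran the other way, with a mean difference of -14 in RPTEC and 5 in 786-O (9 and 11 in WT, 13 and 17 in SETD2KO-1R). SAA1, an acute phase protein, had a difference of -1 in RPTEC and 1 in 786-O.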

How the results depend on the processing

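Merging peaks within 100 bp, requiring 50% overlap, requiring no peak of the other line within 500 bp, and merging all 8 RPTEC libraries left the 6 region results within 1.5 times (counts) or inside the interval (shares). With the upper 50% of each list there were 1651 rescue-only and 748 WT-only regions, 19.1% of the former were called in both SETD2KO-1 libraries, 48.7% of the latter in neither, and 90.9% and 90.4% lay in protein-coding genes. With equal peak numbers the 2006 rescue-only regions lay in protein-coding genes at 88.8%, and 341 genes had WT peaks alone. With peaks of at least 270 bp these were 1889 regions and 85.3%. Leaving out 1 library, so that 1 library stands for its line, gave 4224 to 11216 rescue-only and 2579 to 6950 WT-only regions, 9.33% to 32.3% of rescue-only regions in both SETD2KO-1 libraries, 38.3% to 75.1% of WT-only regions in neither, and 86.5% to 89.0% and 86.2% to 86.8% in protein-coding genes. The order of the groups turned without WT replicate 1 (6747 and 6950) and without WT replicate 2 (4224 and 6938). The line left with 1 library then needed 1 call and not 2, so the groups were not chosen on equal terms. Any further part of the WT libraries was not tested.

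The log2 difference in peak number was 0.15 to 0.38 with 1 library left out. With the replicate block it stayed 0.27, with an exact permutation p of 0.5, the smallest that 2 pairs allow. Same-numbered libraries of the lines did not deviate together (correlation 0.02 over the regions), so the pairing rests on numbers alone. In 786-O the WT-only regions numbered 1820 with peaks of at least 288 bp and 2163 with equal peak numbers. Alternatives for 786-O, for the genes marked in 1 line and for gene starts were chosen after seeing the data. The depth behind each peak is unknown here, so regions near the call limit cannot be told from absent ones.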
